A study of Homo sapiens with 6 samples.

Results

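The genes described are FOS, FOSL1, FOSL2, JUN, JUNB, JUND, ATF3, EGR1, MYC and IER3. Most of them code for proteins that cells make within minutes to hours of a growth or stress signal. These 10 genes were picked by symbol from the 26255 gene symbols measured by RNA sequencing in BxPC-3 cells, an established human cell line of pancreatic adenocarcinoma. Each of the 6 libraries held a row for all 10. Cells without treatment (Parent, n = 2 libraries), cells given a negative control (NC-1, n = 2) and cells given the microRNA miR-4711-5p (n = 2) were compared, and RNA was collected at 36 h after transfection by the study's methods. All 3 groups come from this 1 cell line, and the labels name no other change between them. Parent cells were without treatment, so in comparisons with Parent the transfection and the RNA given cannot be told apart. The labels do not say whether the 2 libraries of a group came from separate cultures. All p-values therefore measure only the spread between these libraries, which may be technical.

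AP-1 is a pair of basic leucine zipper (bZIP) proteins. FOS family proteins pair only with a partner such as a JUN family protein, whereas JUN family proteins also pair with each other, and the pairs bind the DNA element TGACTCA. Growth factor and stress signals pass through MAP kinases to ETS factors and SRF, which switch on FOS and EGR1 without new protein synthesis, while JUN is controlled to a large part by ATF and JUN proteins. MYC, which binds the E-box CACGTG with its partner MAX, drives ribosome production and growth. In pancreatic cancer, FOSL1 (FRA-1) and MYC are known as outputs of the RAS to ERK pathway. In bulk RNA, a smaller number of cells that express a gene and less RNA of it per cell cannot be told apart.

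A microRNA pairs its seed, bases 2 to 8, with sites in the 3′ untranslated region (UTR) of an mRNA and lowers its level or translation. The mature sequence of miR-4711-5p is shown with its seed in capitals because it decides which of the 10 mRNAs hold a site. It is taken from RefSeq on GRCh38.p14 (chr1:59733269-59733291, minus strand), read 5′ to 3′ as RNA.
miR-4711-5p: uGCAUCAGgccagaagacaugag
Sites were searched as CTGATGC (7mer-m8, pairing with bases 2 to 8) and TGATGCA (7mer-A1, which replaces the last pairing by an A at its end). The longest annotated 3′ UTR of 2055 of 11180 tested genes (18.4%) held at least 1 such site, and so did those of 2 of the 10 genes, JUN and FOSL2. The stretch around each site is shown on the mRNA strand with the site in capitals. In JUN it lay at base 915 of a 3′ UTR of 1284 bases (GRCh37, chr1:59246826-59246832, minus strand), and in FOSL2 at base 1885 of 4869 (GRCh37, chr2:28637200-28637206, plus strand).
JUN site: cctgatgtacCTGATGCtatggtcagg
FOSL2 site: cctgtacaagTGATGCAgaaaggaggg
The 3′ UTRs of FOS, FOSL1, JUNB, JUND, ATF3, EGR1, MYC and IER3 held neither of these letters. Many immediate early mRNAs carry the pentamer ATTTA, a core of AU-rich elements that mark mRNAs for rapid decay. FOS held 5 of them (6.20 per 1000 bases of 3′ UTR), IER3 6 (6.64), MYC 6 (3.01), JUN 3 (2.34), ATF3 3 (2.46), JUNB 2 (4.0), FOSL2 9 (1.85), and FOSL1, JUND and EGR1 1 each. The median over the tested genes was 1.70 per 1000 bases, so 7 of the 10 lay above it.

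The 6 libraries summed to between 493145 and 550772 FPKM, lowest in the miR-4711-5p libraries, and had a relative depth of 0.751 to 1.21 times that of Parent library 1, judged from the steps between the lowest values. FPKM is the number of fragments per 1000 bases of exon and for the size of the library, so levels of different genes can be set side by side on it. All 7 epithelial markers were above 1 FPKM in every library, as the label of a pancreatic line would have them, whereas none of 6 blood cell markers reached 1 FPKM (summed 0.563 to 0.979 FPKM). Of 6 fibroblast markers COL1A1 alone reached it (summed list, 1.31 to 2.47 FPKM), and of 4 endothelial markers CDH5 alone did, in the NC-1 libraries (3.16 and 2.88 FPKM; summed list, 0.649 to 3.53 FPKM). The epithelial markers differed in level between the groups. With miR-4711-5p, KRT19, KRT7, CDH1 and MUC1 were below all control libraries, KRT18 and EPCAM were above them, and KRT8 lay among them. CDH1 had 114 and 117 FPKM in Parent, 109 and 110 FPKM in NC-1, and 28.3 and 30.9 FPKM with miR-4711-5p. The part of CDH5 and of these markers in the values below was not tested. With 2 libraries against 2 an exact permutation test cannot go below p = 0.333, so the tests are from limma on log2(FPKM + 1) over the 12040 genes that averaged 1 FPKM or more across the 6 libraries, with all 6 libraries in the fit and Benjamini-Hochberg adjustment at 0.05. All 10 genes passed that filter, and each had a mean over 1 FPKM in all 3 groups.

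With miR-4711-5p, 5 of the 10 genes were higher than in Parent by limma (ATF3, JUN, EGR1, IER3 and FOSL2) and 0 were lower, where 18.7% of all tested genes were called higher and 24.7% lower. The other 5 missed the threshold, and at an unadjusted limma p under 0.05 the counts were also 5 and 0. The share of all tested genes at an unadjusted p was not counted. Unadjusted counts, here and for the lists below, therefore have no share to be set beside. Against NC-1, 6 were higher (ATF3, JUN, JUND, EGR1, MYC and JUNB) and 1 was lower (FOS), beside 18.4% and 21.2% of all tested genes. Leaving out 1 miR-4711-5p library left fewer of the 10 genes, and also fewer of all tested genes, called higher against either control. Between NC-1 and Parent, 2 were higher (FOS and FOSL2) and 2 lower (JUND and JUNB), beside 12.1% and 15.1%. Without Parent library 1 or either NC-1 library fewer were lower there, among the 10 genes and among all tested genes. The median log2 difference of the 10 genes was 0.23, 0.28 and 0.09 in these 3 comparisons, beside -0.01, 0.00 and -0.01 for all tested genes. JUN, ATF3 and EGR1 were called against both controls, and not between the controls. Both comparisons of miR-4711-5p share the miR-4711-5p libraries, so a call against both controls is not 2 independent results. The miR-4711-5p against Parent and NC-1 against Parent comparisons share the Parent libraries, and both comparisons with NC-1 share the NC-1 libraries. The values of the 3 comparisons are therefore not independent of each other.

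**Figure D1:**
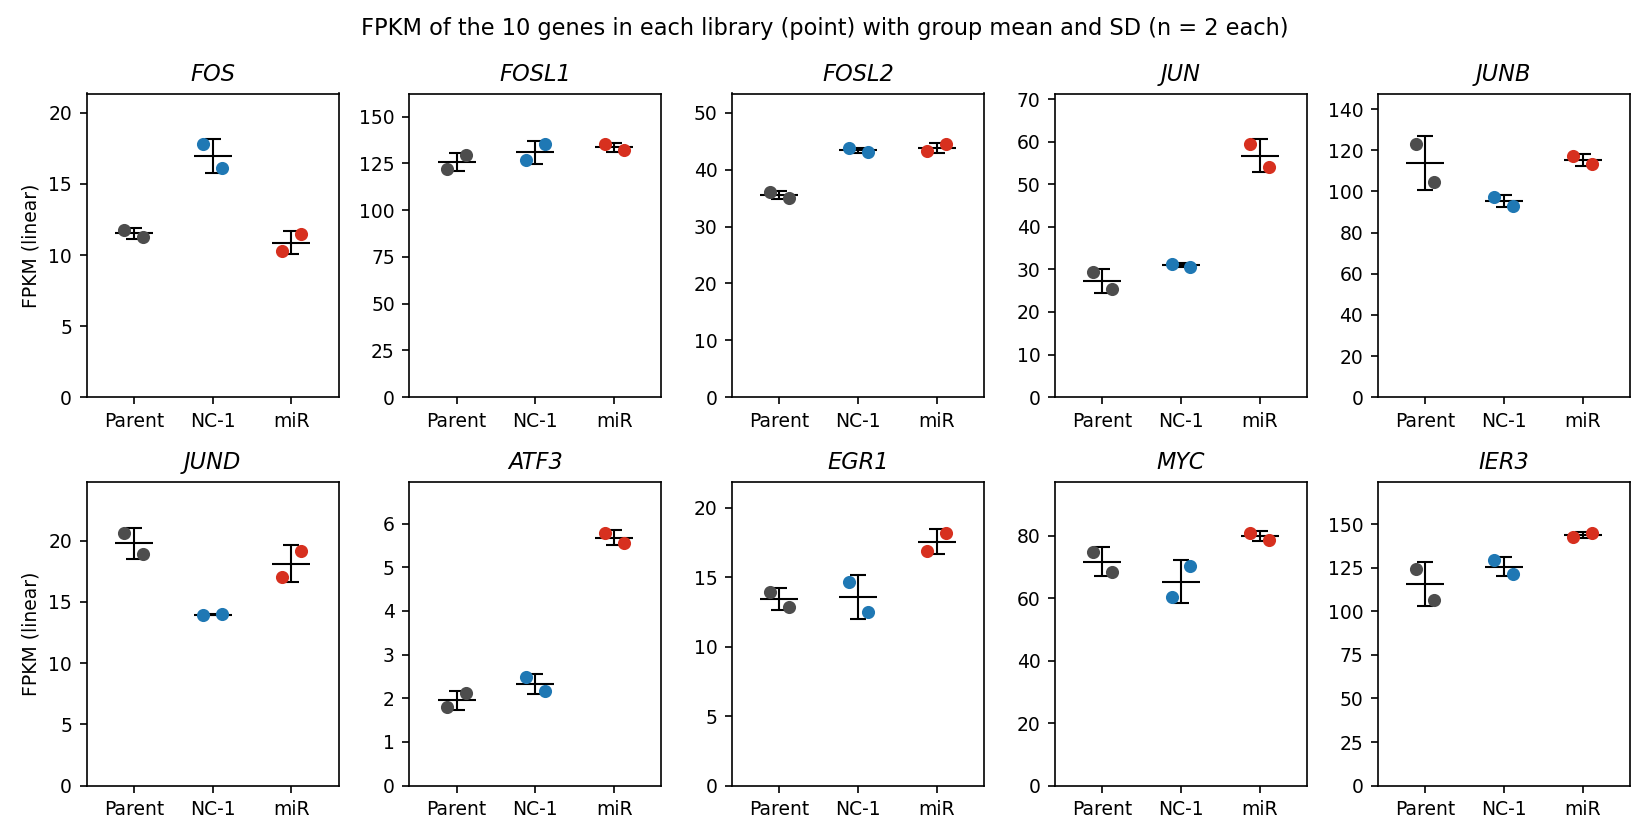
FPKM on a linear axis from 0 of each of the 10 genes in the 6 libraries (points), with group mean and SD (bars, n = 2). The miR-4711-5p points lie above all 4 other points for JUN, ATF3, EGR1, MYC and IER3, the NC-1 points stand apart for FOS, JUNB and JUND, and for FOSL2 the Parent points are the lowest.

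JUN codes for c-Jun, the AP-1 subunit with the strongest activating domain of its family, and lies on chromosome 1 (GRCh37, chr1:59242517-59249720, minus strand). It had 29.3 and 25.3 FPKM in the Parent libraries, 31.3 and 30.6 FPKM in the NC-1 libraries, and 59.4 and 54.0 FPKM with miR-4711-5p. Both miR-4711-5p libraries were above all others, and the NC-1 libraries lay just above the Parent libraries. The mean was 2.08-fold that of Parent (log2 difference 1.03, SE 0.08, limma adjusted p = 8.07e-05) and 1.83-fold that of NC-1 (0.85, SE 0.08, limma adjusted p = 0.000225). NC-1 against Parent was 1.13-fold (log2 difference 0.18, limma adjusted p = 0.133). JUN stood at place 188 of 12040 genes in the order of log2 differences against Parent, with 1.55% of tested genes above it.

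ATF3, a bZIP factor of the stress response that pairs with JUN proteins and as a homodimer represses, also lies on chromosome 1 (GRCh37, chr1:212738676-212794119, plus strand). Its FPKM was 1.80 and 2.11 in the Parent libraries, 2.49 and 2.16 in the NC-1 libraries, and 5.79 and 5.56 with miR-4711-5p. The miR-4711-5p libraries were again above all others by more than the spread within any group. The mean was 2.90-fold that of Parent (log2 difference 1.18, SE 0.10, limma adjusted p = 0.000122) and 2.44-fold that of NC-1 (1.01, SE 0.10, limma adjusted p = 0.000286). It was the lowest of the 10 genes in every group, and only 17.3% of the tested genes had a lower mean level. At place 158 of 12040 it had 1.30% of tested genes above it against Parent. Between NC-1 and Parent its log2 difference was 0.17 (limma adjusted p = 0.233).

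JUN and ATF3 had the largest differences of the 10 genes against both controls, and their promoters are shown for that reason, together with that of EGR1, whose control by SRF is well known. Each runs from 250 bases before to 50 after the start of transcription, on the strand of the gene, from RefSeq on GRCh38.p14, which held promoters for 7 of the 10 genes. Capitals mark matches to TGACNTCA, a cyclic AMP response element (CRE) with its middle base free, and to the CArG box, the element of SRF. On both strands, TGACNTCA was found in 7.72% of 35116 promoters and the CArG box in 1.29%.
JUN promoter (chr1:58783998-58784297, minus strand): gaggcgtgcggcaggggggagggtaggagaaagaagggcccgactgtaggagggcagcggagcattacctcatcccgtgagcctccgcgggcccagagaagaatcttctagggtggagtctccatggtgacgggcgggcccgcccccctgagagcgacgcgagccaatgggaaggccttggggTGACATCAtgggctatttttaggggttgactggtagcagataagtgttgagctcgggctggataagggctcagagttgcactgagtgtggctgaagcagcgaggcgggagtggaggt
ATF3 promoter (chr1:212565157-212565456, plus strand): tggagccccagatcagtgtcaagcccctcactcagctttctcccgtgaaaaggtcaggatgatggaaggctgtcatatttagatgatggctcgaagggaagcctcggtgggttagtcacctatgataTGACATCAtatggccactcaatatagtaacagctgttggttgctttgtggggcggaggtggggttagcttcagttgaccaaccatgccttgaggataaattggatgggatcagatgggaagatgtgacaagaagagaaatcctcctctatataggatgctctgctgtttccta
EGR1 promoter (chr5:138465229-138465528, plus strand): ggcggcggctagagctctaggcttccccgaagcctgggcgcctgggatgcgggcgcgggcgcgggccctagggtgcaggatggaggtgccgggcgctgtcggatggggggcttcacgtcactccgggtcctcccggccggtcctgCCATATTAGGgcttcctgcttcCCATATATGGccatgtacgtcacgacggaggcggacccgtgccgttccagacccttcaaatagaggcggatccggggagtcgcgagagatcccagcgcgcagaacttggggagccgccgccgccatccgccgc
The JUN and ATF3 promoters held the same 8 letters, TGACATCA, at positions -67 and -123 from the start of transcription, as did 918 of all 35116 promoters (2.61%). These letters were searched after the values of both genes had been seen, and they do not overlap TGACTCA. A second ATF3 promoter (chr1:212614768-212615067) held none of the motifs searched. The EGR1 promoter held 2 CArG boxes, CCATATTAGG at -105 and CCATATATGG at -83. Of the other promoters, FOSL2 held TGACTCA at position 5 (4.95% of promoters) and JUND held TGACGTCA at -200 (1.85%), while those of FOS and JUNB held none in this window. CACGTG, found in 7.26% of all promoters, was in none of the 7 genes.

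JUNB and JUND are the other JUN family proteins, weaker activators that in many settings hold c-Jun in check. JUNB had 123 and 105 FPKM in the Parent libraries, 97.3 and 93.2 FPKM in the NC-1 libraries, and 117 and 113 FPKM with miR-4711-5p. The miR-4711-5p libraries lay between the Parent libraries, and the NC-1 libraries were below all others. JUNB with miR-4711-5p was 1.21-fold of NC-1 (log2 difference 0.27, SE 0.08, limma adjusted p = 0.0250), while the log2 difference from Parent was 0.02 (95% interval -0.15 to 0.20, limma adjusted p = 0.824). NC-1 was 0.837-fold of Parent (-0.25, limma adjusted p = 0.0469). Without any 1 of its 4 libraries the call against NC-1 was lost (limma adjusted p between 0.0691 and 0.134), and so was the call between the controls without Parent library 1 or either NC-1 library (0.115 to 0.178).

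JUND had 20.7 and 18.9 FPKM in the Parent libraries, 13.9 and 14.0 FPKM in the NC-1 libraries, and 17.0 and 19.2 FPKM with miR-4711-5p. As for JUNB, the NC-1 libraries were the lowest, and Parent and miR-4711-5p overlapped. NC-1 was 1.42-fold lower than Parent (log2 difference -0.47, SE 0.07, limma adjusted p = 0.00504), and miR-4711-5p was 1.30-fold higher than NC-1 (0.35, SE 0.07, limma adjusted p = 0.00780). The latter call was lost without miR-4711-5p library 2 (limma adjusted p = 0.0590). The log2 difference of miR-4711-5p from Parent was -0.12 (95% interval -0.29 to 0.05, limma adjusted p = 0.213).

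Because FPKM is per exon length, the make-up of the JUN family can be given as shares of its summed FPKM. JUNB was the main member in all 6 libraries. Its share was 70.7% ± 0.583 (SD, n = 2) in Parent, 67.9% ± 0.473 in NC-1 and 60.6% ± 0.150 with miR-4711-5p. JUN made up 17.0% ± 0.0512 in Parent, 22.1% ± 0.180 in NC-1 and 29.8% ± 1.20 with miR-4711-5p, and the groups did not overlap. JUND took 12.3% ± 0.531, 9.97% ± 0.292 and 9.54% ± 1.05 in the same order. The family summed to 161 ± 17.1 FPKM in Parent, 140 ± 3.36 FPKM in NC-1 and 190 ± 5.11 FPKM with miR-4711-5p. No test was run on shares or sums.

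**Figure D2:**
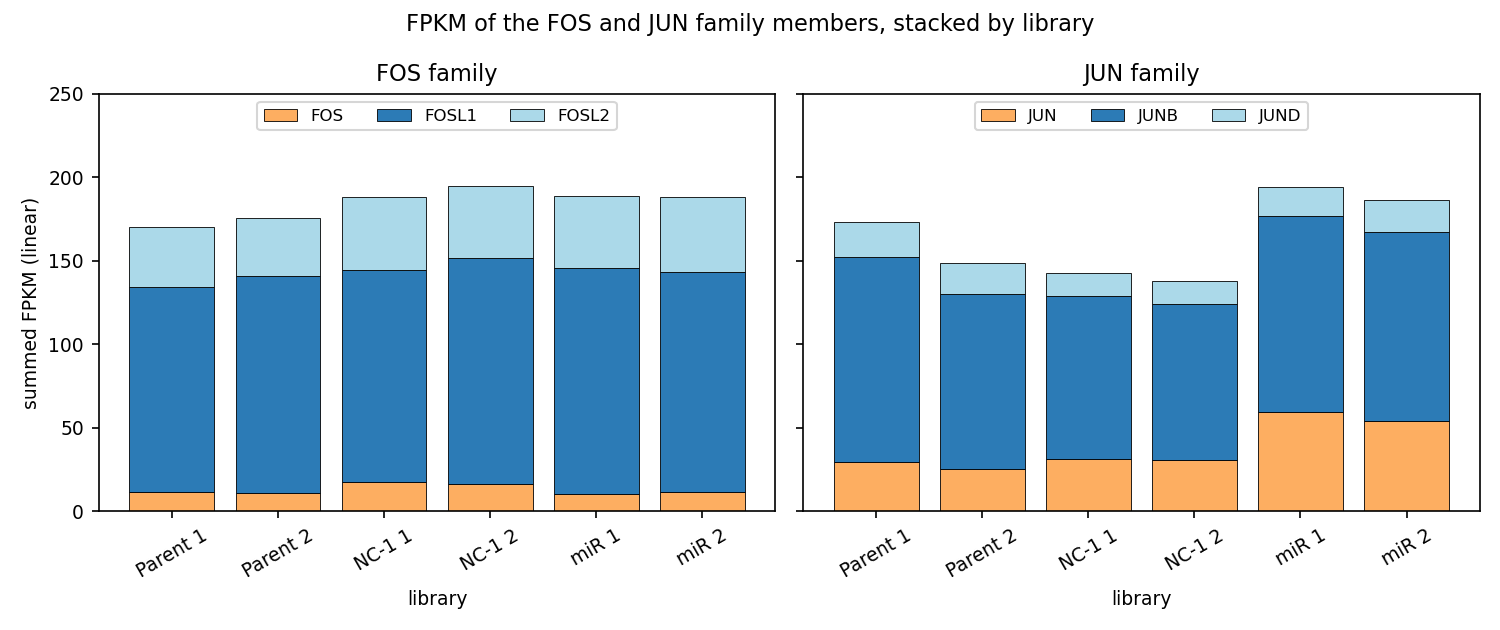
Summed FPKM on a linear axis of the FOS family (left) and the JUN family (right) in each of the 6 libraries, stacked by member. FOSL1 and JUNB fill most of each bar, and the JUN block of the 2 miR-4711-5p libraries (59.4 and 54.0 FPKM) is the tallest of the 6.

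FOS is the best known immediate early gene, with an mRNA that is made and lost within an hour of a stimulus (GRCh37, chr14:75745529-75748933, plus strand). Its FPKM was 11.8 and 11.3 in the Parent libraries, 17.8 and 16.1 in the NC-1 libraries, and 10.3 and 11.5 with miR-4711-5p. NC-1 stood apart, above all 4 other libraries, while Parent and miR-4711-5p overlapped. FOS was higher in NC-1 than in Parent (log2 difference 0.52, SE 0.07, limma adjusted p = 0.00406) and lower in the miR-4711-5p than in the NC-1 libraries (-0.60, SE 0.07, limma adjusted p = 0.000884). Against Parent the log2 difference with miR-4711-5p was -0.08 (95% interval -0.25 to 0.10, limma adjusted p = 0.428), so the call depends on which control is used.

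FOSL1, whose protein FRA-1 is stabilised by ERK and linked to invasion, was the highest of the AP-1 genes (GRCh37, chr11:65659520-65668044, minus strand). It had 122 and 129 FPKM in the Parent libraries, 127 and 135 FPKM in the NC-1 libraries, and 135 and 132 FPKM with miR-4711-5p. The 3 groups lay within a narrow band, with miR-4711-5p above Parent in both libraries and overlapping NC-1. The log2 difference of miR-4711-5p was 0.09 from Parent (95% interval -0.03 to 0.21, limma adjusted p = 0.203) and 0.03 from NC-1 (-0.09 to 0.15, limma adjusted p = 0.666). Among 6647 genes averaging 10 FPKM or more, PGM2 had the most similar profile over the 6 libraries, at a Euclidean distance to FOSL1 of 0.0228 on centred log2(FPKM + 1), and ATG9A was also among the 3 nearest (0.0437).

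FOSL2, which codes for FRA-2, had 36.1 and 35.0 FPKM in the Parent libraries, 43.7 and 43.1 FPKM in the NC-1 libraries, and 43.3 and 44.5 FPKM with miR-4711-5p (GRCh37, chr2:28615315-28640184, plus strand). The Parent libraries were the lowest, and NC-1 and miR-4711-5p overlapped. FOSL2 exceeded Parent 1.23-fold after miR-4711-5p (log2 difference 0.30, SE 0.05, limma adjusted p = 0.00196) and 1.22-fold in NC-1 (0.28, SE 0.05, limma adjusted p = 0.00610). Between miR-4711-5p and NC-1 the log2 difference was 0.02 (95% interval -0.09 to 0.12, limma adjusted p = 0.804). Of the 2 genes with a seed site, JUN was thus above both controls and FOSL2 above Parent in the miR-4711-5p libraries, and neither was lower.

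Within the FOS family FOSL1 held 72.7% ± 1.26 (SD, n = 2) of the summed FPKM in Parent, 68.4% ± 1.62 in NC-1 and 70.9% ± 1.0 with miR-4711-5p. FOSL2 held 20.6% ± 0.894, 22.7% ± 0.782 and 23.3% ± 0.541, and FOS held 6.67% ± 0.361, 8.87% ± 0.838 and 5.77% ± 0.459 in the same order. The order FOSL1, FOSL2, FOS was the same in all 6 libraries. The family summed to 173 ± 3.96, 191 ± 4.45 and 188 ± 0.609 FPKM.

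EGR1, a zinc finger factor switched on by SRF and ETS factors, had 14.0 and 12.9 FPKM in the Parent libraries, 14.7 and 12.5 FPKM in the NC-1 libraries, and 16.9 and 18.2 FPKM with miR-4711-5p (GRCh37, chr5:137801168-137804992, plus strand). The controls overlapped, and both miR-4711-5p libraries lay above them. The mean was 1.31-fold that of Parent (log2 difference 0.36, SE 0.09, limma adjusted p = 0.0125) and 1.29-fold that of NC-1 (0.35, SE 0.09, limma adjusted p = 0.0154). The call against Parent was lost without Parent library 2 or miR-4711-5p library 2 (limma adjusted p = 0.0795 and 0.0866), and that against NC-1 was lost without NC-1 library 2 or either miR-4711-5p library (0.0779, 0.0523 and 0.104).

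IER3 codes for a small protein of the early response that bears on cell survival, and lies in the MHC region of chromosome 6 (GRCh37, chr6:30710976-30712325, minus strand). Whether reads were shared with alternative haplotypes of that region was not measured. It had 124 and 107 FPKM in the Parent libraries, 129 and 122 FPKM in the NC-1 libraries, and 143 and 145 FPKM with miR-4711-5p. The miR-4711-5p libraries were the highest, and the controls overlapped. The mean was 1.25-fold that of Parent (log2 difference 0.32, SE 0.07, limma adjusted p = 0.0118), a call lost without miR-4711-5p library 1 or 2 (limma adjusted p = 0.0628 and 0.0703). Against NC-1 the log2 difference was 0.20 (95% interval 0.02 to 0.37, limma adjusted p = 0.0705).

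MYC had 75.0 and 68.5 FPKM in the Parent libraries, 60.4 and 70.4 FPKM in the NC-1 libraries, and 81.1 and 78.8 FPKM with miR-4711-5p. Both miR-4711-5p libraries were above all others, and the controls overlapped. MYC exceeded NC-1 1.22-fold after miR-4711-5p (log2 difference 0.29, SE 0.08, limma adjusted p = 0.0233), a call lost without NC-1 library 1 or either miR-4711-5p library (limma adjusted p = 0.0999, 0.124 and 0.0865). Against Parent the log2 difference was 0.15 (95% interval -0.03 to 0.34, limma adjusted p = 0.151). The profiles most similar to that of MYC over the 6 libraries were those of MTERF3, CNPY2 and ZFYVE27, at Euclidean distances of 0.0496, 0.0724 and 0.0776 among the same 6647 genes.

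**Figure D3:**
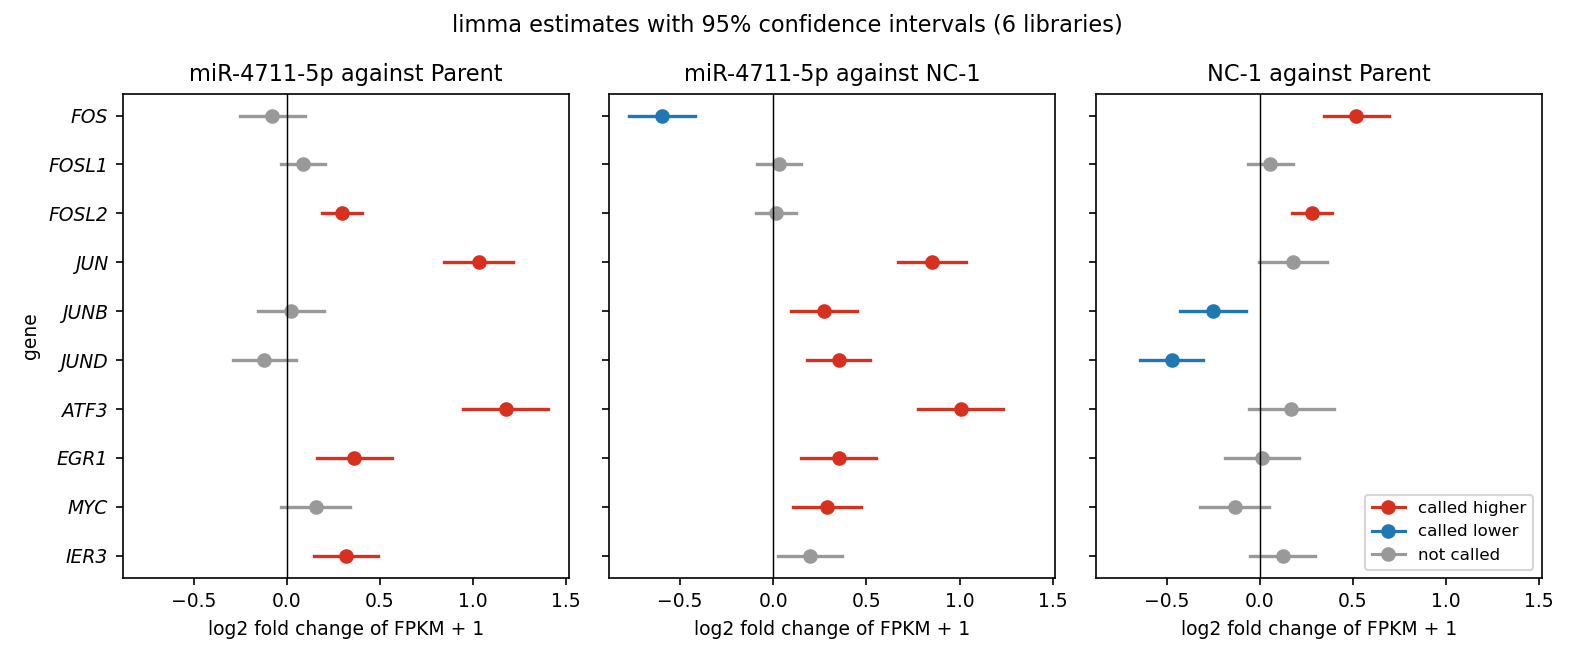
log2 differences of FPKM + 1 from limma with 95% intervals for the 10 genes in the 3 comparisons. ATF3 (1.18) and JUN (1.03) lie farthest to the right against Parent, and FOS lies on the left against NC-1 (-0.60) and on the right in NC-1 against Parent (0.52).

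In order of mean FPKM, FOSL1 led in Parent (126 ± 5.05, SD, n = 2), followed by IER3 (116 ± 12.6) and JUNB (114 ± 13.0), 3 genes whose libraries overlapped. MYC (71.7 ± 4.57), FOSL2, JUN, JUND, EGR1, FOS and ATF3 (1.96 ± 0.218) came next in that order, each with both libraries below those of the gene before. With miR-4711-5p IER3 (144 ± 1.70) was above FOSL1 (134 ± 2.32) without overlap, and JUN (56.7 ± 3.81) was above FOSL2 (43.9 ± 0.878), the reverse of their order in Parent. JUND and EGR1 overlapped there (18.1 ± 1.51 and 17.6 ± 0.922). In NC-1, FOS (17.0 ± 1.21) stood above JUND and EGR1, which overlapped. FOSL1, IER3, JUNB and MYC were above at least 90.1% of the tested genes in mean level over the 6 libraries.

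The other genes of these pathways were taken from 7 lists, described by their counts beside the percentages of all tested genes given above. Those percentages hold for adjusted p and FPKM as deposited. In each list the 3 genes with the largest absolute log2 difference of miR-4711-5p against Parent are named, and genes named for a small count beyond these 3 were chosen after their values were seen. The partners of AP-1 and related bZIP genes (8 of 10 tested) held 4 genes higher and 1 lower than in Parent, and 5 higher and 1 lower than in NC-1, with median log2 differences of 0.28 and 0.29. With every library scaled to the same sum of FPKM, a choice made after seeing the data, these counts were 5 and 1, and 5 and 0. Of all 12040 tested genes, 4010 were then higher and 1776 lower than in Parent, and 2923 higher and 2083 lower than in NC-1. BATF2, MAFF and ATF7 changed most. MAFF, a small MAF protein, had 8.80 and 8.99 FPKM in the Parent libraries, 12.04 and 13.3 FPKM in the NC-1 libraries, and 15.6 and 14.7 FPKM with miR-4711-5p. It was higher than in Parent in both treated groups, and the 3 groups did not overlap (log2 difference of miR-4711-5p 0.71 from Parent, limma adjusted p = 0.000227, and 0.24 from NC-1, 0.0257). BATF2 stood at the low levels of 0.618 and 0.904 FPKM in Parent, 1.40 and 1.32 FPKM in NC-1, and 2.30 and 2.59 FPKM with miR-4711-5p. With miR-4711-5p it was above Parent (log2 difference 0.97, limma adjusted p = 0.000976) and above NC-1 (0.54, 0.0131), and NC-1 was above Parent (0.43, 0.0451). ATF7 fell with miR-4711-5p (log2 difference -0.47 from Parent, limma adjusted p = 0.00368).

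Of 21 tested genes among 24 other immediate early genes, 15 were higher and 2 lower than in Parent (median log2 difference 0.40), and 14 were higher and 2 lower than in NC-1 (0.28). NC-1 against Parent gave 6 higher and 0 lower (0.10), or 6 and 1 at an unadjusted limma p under 0.05. CYR61 (CCN1), a matrix protein, had 62.7 and 54.5 FPKM in Parent, 75.4 and 70.3 FPKM in NC-1, and 207 and 195 FPKM with miR-4711-5p. Its 2 miR-4711-5p libraries were well above the rest, at 3.43-fold of Parent (log2 difference 1.77, SE 0.07, limma adjusted p = 6.75e-06) and 2.76-fold of NC-1 (1.45, limma adjusted p = 1.70e-05). CTGF (CCN2), its relative, was lower in level and already higher in NC-1, with 1.68 and 1.80 FPKM in Parent, 4.94 and 3.70 FPKM in NC-1, and 7.13 and 6.77 FPKM with miR-4711-5p. It rose in NC-1 against Parent (log2 difference 0.95, limma adjusted p = 0.00257) and with miR-4711-5p against NC-1 (0.59, limma adjusted p = 0.00675). ID1, an inhibitor of basic helix-loop-helix factors, moved the other way, from 217 and 200 FPKM in Parent and 178 and 197 FPKM in NC-1 to 73.4 and 83.5 FPKM with miR-4711-5p (log2 difference -1.40 from Parent, limma adjusted p = 2.10e-05, and -1.25 from NC-1, 3.81e-05). BTG2, an antiproliferative gene, was the other gene that fell in both comparisons.

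**Figure D4:**
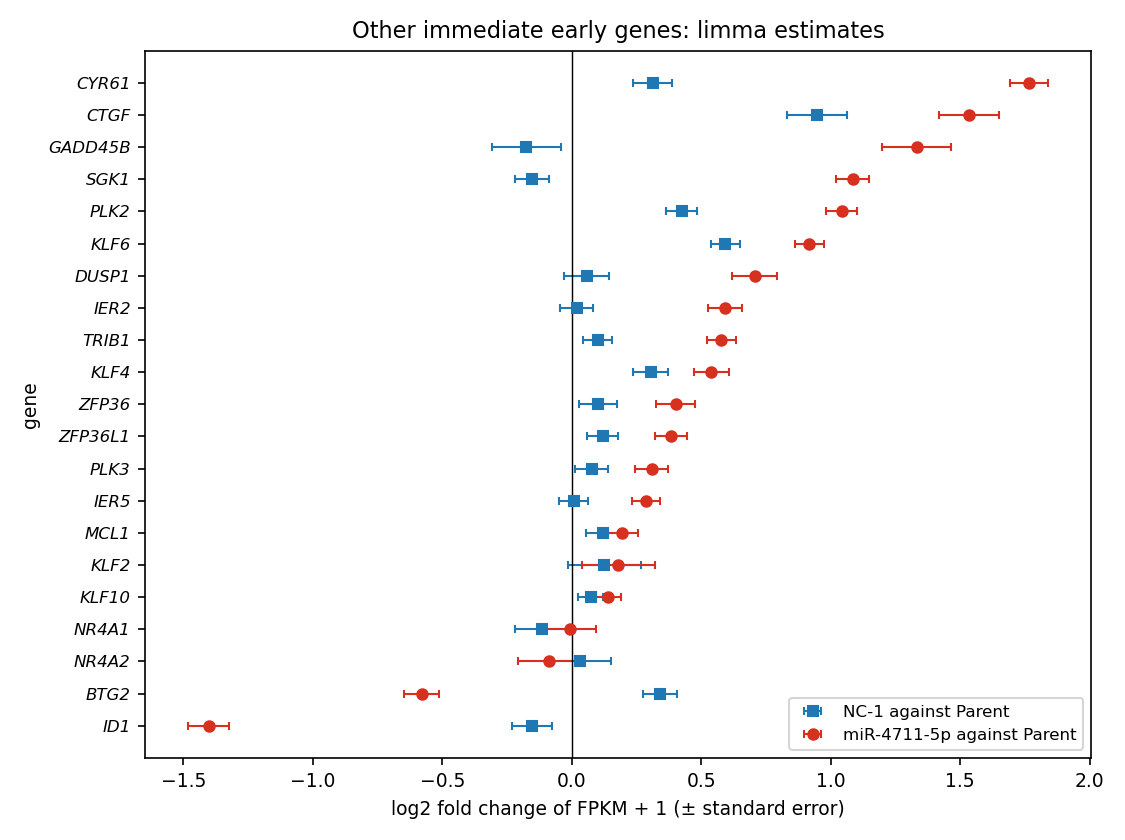
log2 differences of FPKM + 1 with standard errors from limma for the 21 tested genes among the other immediate early genes, for miR-4711-5p against Parent (circles) and NC-1 against Parent (squares). CYR61 (1.77) and CTGF (1.53) lie farthest to the right for miR-4711-5p, and ID1 (-1.40) lies farthest to the left.

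Upstream of FOS and EGR1, of 8 SRF and ETS factors, ETS1 and MKL1, a coactivator of SRF, were higher than in Parent and ELK3 was lower, with a median log2 difference of 0.00. With equal sums of FPKM the list held 3 higher and 0 lower (median 0.13), beside 4010 and 1776 of all 12040 tested genes. The ELK3 call was then lost (-0.13, limma adjusted p = 0.158). ETS1 had 39.6 and 38.7 FPKM in Parent, 51.4 and 47.0 FPKM in NC-1, and 54.4 and 51.7 FPKM with miR-4711-5p, so that both treated groups were above Parent (log2 differences 0.43 and 0.32, limma adjusted p = 0.00105 and 0.00818). Against NC-1, MKL1 alone was higher (log2 difference 0.29, limma adjusted p = 0.0185), and SRF, ELK3 and ELK4 were lower (-0.27, -0.64 and -0.45, limma adjusted p = 0.00772, 0.000307 and 0.00224). These 3 were higher in NC-1 than in Parent (log2 differences 0.24, 0.38 and 0.38, limma adjusted p = 0.0211, 0.00638 and 0.00886).

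Of 14 tested MAP kinases and their relatives among 16 listed, 1 (MAPK8) was higher and 5 (MAPK9 and MAPK14 among them) were lower than in Parent with miR-4711-5p, with a median log2 difference of -0.11. MAPK8 and MAPK9 code for the JUN kinases JNK1 and JNK2. MAPK8 had 4.98 FPKM in both Parent libraries, 5.91 and 6.06 FPKM in NC-1, and 6.75 and 5.79 FPKM with miR-4711-5p (log2 difference 0.28 from Parent, limma adjusted p = 0.0278). MAPK9 had 8.76 and 8.99 FPKM in Parent, 9.39 and 9.47 FPKM in NC-1, and 6.28 and 6.58 FPKM with miR-4711-5p. Its miR-4711-5p libraries were below all others (log2 difference -0.41 from Parent, limma adjusted p = 0.00148, and -0.49 from NC-1, 0.000742). MAPK14, the p38 kinase, had 24.4 and 25.0 FPKM in Parent, 21.8 FPKM in both NC-1 libraries, and 19.0 and 19.8 FPKM with miR-4711-5p. Its log2 difference with miR-4711-5p was -0.33 from Parent and -0.16 from NC-1 (limma adjusted p = 0.00170 and 0.0365), and NC-1 was itself below Parent (-0.17, limma adjusted p = 0.0395). The last 2 of these calls were lost with equal sums of FPKM (limma adjusted p = 0.118 and 0.208). With equal sums of FPKM the list held 4 higher and 2 lower than in Parent, and its median was 0.02. Of all 12040 tested genes 4010 were then higher and 1776 lower.

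Textbook AP-1 targets, 15 of 16 tested, moved in both directions with miR-4711-5p. Of these 6 were higher and 5 lower than in Parent (median log2 difference 0.00), and 4 were higher and 9 lower than in NC-1 (-0.40), while NC-1 held 10 higher and 0 lower than Parent by limma (0.48), or 11 and 0 at an unadjusted p under 0.05. CXCL8, a chemokine, had 5.24 and 8.75 FPKM in Parent, 15.3 and 16.4 FPKM in NC-1, and 60.3 and 67.9 FPKM with miR-4711-5p. The 3 groups did not overlap (log2 difference of miR-4711-5p 3.06 from Parent, limma adjusted p = 2.81e-05, and 1.95 from NC-1, 0.000260). IL6, an inflammatory cytokine, went from 0.0612 and 0.280 FPKM in Parent through 0.571 and 0.714 FPKM in NC-1 to 6.83 and 7.20 FPKM, and passed the filter through its miR-4711-5p libraries. It is counted among the genes called higher in all 3 comparisons above, and the counts were not made without it. PLAU, the urokinase gene, had 185 and 188 FPKM in Parent, 351 and 339 FPKM in NC-1, and 412 and 410 FPKM with miR-4711-5p, so most of its difference from Parent (log2 difference 1.14, limma adjusted p = 3.95e-06) was present in NC-1 (0.88, limma adjusted p = 8.54e-05). The 4 genes higher than in NC-1 were these 3 and PLAUR, the receptor of urokinase.

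The partners of MYC changed little against Parent. Of 10 tested genes of 12, MYCL alone was lower and 0 were higher with miR-4711-5p by limma, against 3 and 0 at an unadjusted p under 0.05. MYCL had 1.73 and 1.90 FPKM in Parent, 1.64 and 1.73 FPKM in NC-1, and 0.801 and 0.583 FPKM with miR-4711-5p, below all controls (log2 difference -0.74 from Parent, limma adjusted p = 0.00276). MYCN was listed at 0 in all 6 libraries. MXD3 and MNT, which pair with MAX as repressors, had log2 differences of -0.23 and -0.20 from Parent (limma adjusted p = 0.0631 and 0.0733). Against NC-1, MAX and MLX were higher with miR-4711-5p (log2 differences 0.70 and 0.22, limma adjusted p = 0.000525 and 0.0246). MAX itself was lower in NC-1 than in Parent, with 34.6 and 35.4 FPKM in Parent, 21.4 and 25.4 FPKM in NC-1, and 38.7 and 38.2 FPKM with miR-4711-5p. With equal sums of FPKM, 5 genes of the list were higher and 1 lower than in Parent, beside 4010 and 1776 of all 12040 tested genes.

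Textbook MYC targets, 18 of 20 tested, also depended on the control. With miR-4711-5p 1 was higher (NOP16) and 7 lower than in Parent (median log2 difference -0.12), 8 were higher and 4 lower than in NC-1 (0.15), and in NC-1 13 were lower and 0 higher than in Parent by limma (-0.23), or 15 and 0 at an unadjusted p under 0.05. FBL, a methylase of ribosomal RNA, had 218 and 208 FPKM in Parent, 191 and 171 FPKM in NC-1, and 142 and 139 FPKM with miR-4711-5p. It was lower in the miR-4711-5p libraries than in all controls (log2 difference -0.60 from Parent, limma adjusted p = 0.000267). ODC1, of polyamine synthesis, and CDK4, a cell cycle kinase, also fell (-0.40 and -0.38 from Parent, limma adjusted p = 0.00121 and 0.000332). These 3 and SRM were the 4 lower than in NC-1. With equal sums of FPKM the list held 6 higher and 5 lower than in Parent with miR-4711-5p (median 0.02), beside 4010 and 1776 of all 12040 tested genes. It then held 7 lower in NC-1 than in Parent in place of 13 (median -0.14), where 1000 of all tested genes were lower in place of 1823.

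**Figure D5:**
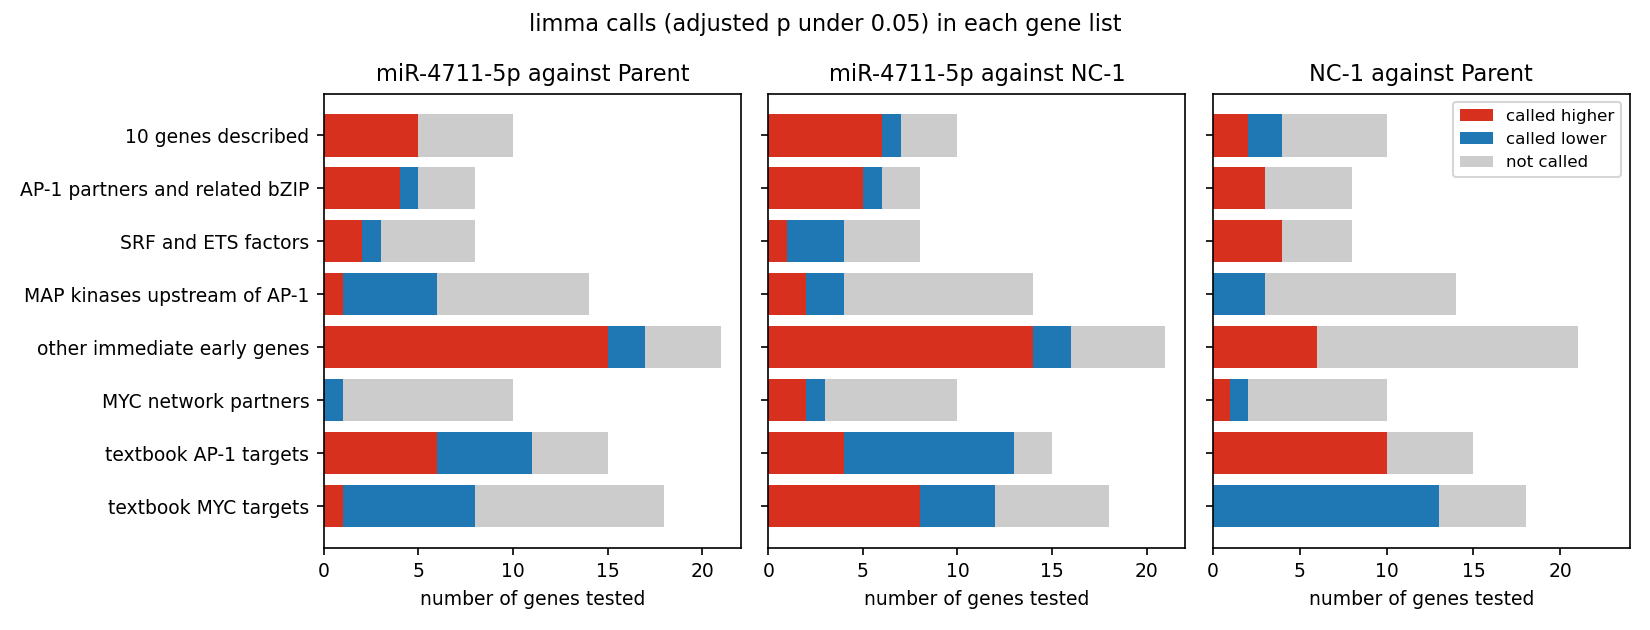
Number of tested genes called higher, called lower and not called by limma (adjusted p under 0.05) among the 10 genes and in 7 lists of related genes, in the 3 comparisons. The other immediate early genes have 15 and 14 of 21 called higher with miR-4711-5p. In NC-1 against Parent the AP-1 targets have 10 called higher and the MYC targets 13 called lower. With equal sums of FPKM the latter number is 7, where 1000 of all 12040 tested genes were lower in place of 1823. IL6, which passed the filter through its miR-4711-5p libraries, is counted among the AP-1 targets called higher.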

How the data were processed

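RNA was extracted from BxPC-3 cells and made into strand-specific mRNA libraries. Per the submitters' processing notes, reads were mapped to hg19 with TopHat2 2.1.1, Bowtie2 2.3.5.1 and SAMtools 1.2, and quantified with Cufflinks 2.2.1. The study's methods name Cuffnorm for the FPKM. The deposited values are FPKM per gene symbol, normalized by the authors for gene length and library size. The annotation, the strand option and the library normalization option of Cuffnorm are not given in the sources used here. FPKM hold no read counts, so absolute depth is unknown and no count model was used.

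From FPKM onward, Python 3.11.15, pandas 2.3.3, R 4.3.3 and limma 3.58.1 (lmFit, contrasts.fit, eBayes with trend) were used on log2(FPKM + 1), with 3 residual and 4.15 prior degrees of freedom. Log2 differences are on that scale and understate those of low genes, whereas folds are ratios of mean FPKM. The limma script was also run on simulated data with known differences, and the outcome of that run is not given here. Of the 12040 tested symbols, 11126 matched a current gene symbol and 669 matched through an older symbol listed in RefSeq. The 3′ UTRs of matched genes were taken from the GENCODE annotation on GRCh37 (the same assembly as hg19). The 10 genes and the gene lists were chosen with earlier results of these data known. From each list the 3 genes with the largest absolute log2 difference against Parent are named, and for FOSL1 and MYC genes among the 3 nearest profiles. Some items are not reported here. Alternatives covered the pseudocount, the filter, library scaling, the replicate number as a block, the libraries and prior of the fit, and leaving out each library.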

Additional observations from a re-analysis of the deposited data

How the results depend on the processing

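Of the log2 differences of the 10 genes, 348 recomputed under the alternatives kept their direction and side of the threshold, 26 lost a call, 5 gained one and 8 changed sign. The calls of JUN, ATF3, FOS and FOSL2 held in each alternative they were tested in (ATF3 was not tested at a mean of at least 5 FPKM). The JUN log2 difference ranged from 0.93 to 1.17 against Parent and from 0.78 to 0.92 against NC-1, and that of ATF3 from 1.10 to 1.49 and from 0.94 to 1.26.

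Leaving out 1 library moved the number of genes higher with miR-4711-5p between 3 and 5 against Parent (3 without miR-4711-5p library 2) and between 2 and 4 against NC-1 (3 and 2 without miR-4711-5p library 1 and 2), and the number lower in NC-1 than in Parent between 1 and 2. A group then has 1 library, whose spread is assumed to be like that of the others. Fewer of all tested genes were called in each of these fits as well. That last number was also 1 with no filter, with median-of-ratios rescaling, with no trend, with only the libraries of the comparison and with equal sums of FPKM. In each of these 5 settings the JUNB call was lost (limma adjusted p between 0.0559 and 0.126). JUNB against NC-1 was also lost with no filter and with no trend (0.0695 and 0.0517), and MYC against NC-1 with no filter (0.0660). IER3 against NC-1 passed with only the libraries of the comparison (0.0226).

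Differences near 0 changed sign without 1 library. JUNB against Parent ranged from -0.092 (without Parent library 2) to 0.14 (without Parent library 1), and was -0.00099 without miR-4711-5p library 1. FOSL1 against NC-1 ranged from -0.017 (without NC-1 library 1) to 0.078, FOSL2 against NC-1 from -0.0040 (without miR-4711-5p library 2) to 0.036, and EGR1 in NC-1 against Parent from -0.097 (without NC-1 library 1) to 0.12, with -0.043 without Parent library 2.

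Scaling every library to the same sum of FPKM was added after seeing the data. It moved the median of all tested genes against Parent from -0.01 to 0.11. All-gene calls went from 2255 higher and 2975 lower to 4010 and 1776 against Parent, from 2214 and 2549 to 2923 and 2083 against NC-1, and from 1456 and 1823 to 2327 and 1000 between the controls. FOS and JUND against Parent then had log2 differences of 0.051 and 0.012 with miR-4711-5p. FOSL1 and MYC passed against Parent (0.23 and 0.29, limma adjusted p = 0.0124 and 0.0182), IER3 passed against NC-1 (0.25, 0.0237), and JUN passed in NC-1 against Parent (0.26, 0.0444). The cause was not tested. Median-of-ratios rescaling over all symbols above 0 changed none of the calls of the 10 genes.

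The deviations of same-numbered libraries correlated at 0.06, 0.003 and -0.009, so little deviation was shared by replicate number. Whether the cultures were paired cannot be read from these values. With the replicate number as a block the 10 genes gave 5 higher and 0 lower, 6 higher and 1 lower, and 2 higher and 2 lower in the 3 comparisons, and all genes gave 2121 and 2862, 2109 and 2455, and 1263 and 1601. Without 1 library, all-gene calls between the controls went down to as few as 622 higher and 733 lower.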
